A study of Mus musculus with 2 samples.

Results

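Of 167363 autosomal DNase peaks found in both replicates of embryonic mouse midbrain, 2164 (1.29%) lay at the start of a long intergenic non-coding RNA (lincRNA) and far from any protein-coding start. They marked 1325 of the 5209 autosomal lincRNA genes. Among the most accessible were peaks at host genes of the let-7 and miR-30 microRNAs and at Malat1, and the genes with the most peaks were Gm3764 and C130071C03Rik, hosts of the neural microRNA miR-9, followed by Rmst, Lncpint and the miR-124 host Mir124-2hg. As a class these peaks were stronger, richer in CpG and in wider accessible regions (hotspots) than distal peaks. Compared with peaks at protein-coding starts they were weaker, poorer in CpG and in narrower hotspots. A peak counted as a member when its replicate 2 interval overlapped a replicate 1 peak by at least 1 bp, its centre lay within 1000 bp of a transcript start of a gene typed lincRNA in GENCODE M21, and it was over 5000 bp from every protein-coding transcript start. No peak value entered this choice.

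The material was midbrain of healthy B6NCrl embryos at 14.5 days, males and females pooled, with no treatment and no genetic change named. The samples formed 1 group of 2 biological replicates, drawn as separate biosamples but listed under 1 donor, and part of their spread may therefore be technical. There was no contrast between conditions, and all comparisons are between classes of peaks or genes, which are not replicates. In DNase-seq the enzyme DNase I cuts DNA that is not wrapped in nucleosomes, and clusters of cuts are called as peaks within broader accessible regions called hotspots.

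A lincRNA is a spliced or unspliced transcript without a known protein product, made by RNA polymerase II from its own promoter between protein-coding genes. Some lincRNAs act themselves, as Neat1 does in building nuclear paraspeckles, and others serve as the primary transcripts from which microRNAs are cut. Many are made in few tissues and at low levels, and brain is among the tissues with the most of them. A mammalian promoter may be CpG-rich, which is usual for genes used in many cell types, or CpG-poor, which is more usual for tissue-restricted genes and for enhancers.

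Sequences of 9 members are shown as examples of strong, neural and weak lincRNA starts. Each is the 150 bp replicate 2 interval on mm10, read 5′ to 3′ on the strand of the lincRNA from the GRCm38.p6 sequence. Capitals mark exact matches on either strand to promoter motifs: the GC box GGGCGG, the CCAAT box CCAATC, the ETS motif CCGGAAG, the cyclic AMP response element (CRE) TGACGTCA, the NRF1 core GCATGCGC and the TATA box TATAAA. None of these 6 strings contains another. The first sequence is the member with the highest mean rank, the next 5 are the strongest members of the miR-9 and miR-124 host genes, Meg3 and Snhg6 are other well-known lincRNAs, and Gm31450 is the member with the lowest mean rank.
1700096K18Rik chr5:25529636-25529785 (+): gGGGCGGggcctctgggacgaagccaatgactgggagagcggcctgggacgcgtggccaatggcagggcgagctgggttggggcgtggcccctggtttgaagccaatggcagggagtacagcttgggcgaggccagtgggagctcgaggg
Gm3764 chr3:88214316-88214465 (+): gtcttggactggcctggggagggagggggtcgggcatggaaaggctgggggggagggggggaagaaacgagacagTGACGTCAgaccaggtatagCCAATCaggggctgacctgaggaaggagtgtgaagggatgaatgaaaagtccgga
C130071C03Rik chr13:83721096-83721245 (+): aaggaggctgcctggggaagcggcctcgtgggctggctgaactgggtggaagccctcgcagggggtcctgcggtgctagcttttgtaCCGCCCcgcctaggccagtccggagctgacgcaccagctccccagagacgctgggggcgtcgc
Mir9-3hg chr7:79499896-79500045 (+): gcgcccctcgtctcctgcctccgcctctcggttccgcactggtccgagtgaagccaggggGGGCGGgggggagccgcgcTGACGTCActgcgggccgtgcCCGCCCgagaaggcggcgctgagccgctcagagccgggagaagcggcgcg
Mir124a-1hg chr14:64589576-64589725 (+): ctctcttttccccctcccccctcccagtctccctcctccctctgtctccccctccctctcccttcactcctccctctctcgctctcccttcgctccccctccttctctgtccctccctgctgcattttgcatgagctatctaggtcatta
Mir124-2hg chr3:17793896-17794045 (+): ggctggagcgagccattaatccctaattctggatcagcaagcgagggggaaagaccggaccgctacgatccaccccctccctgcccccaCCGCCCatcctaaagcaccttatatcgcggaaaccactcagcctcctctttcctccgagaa
Meg3 chr12:109540816-109540965 (+): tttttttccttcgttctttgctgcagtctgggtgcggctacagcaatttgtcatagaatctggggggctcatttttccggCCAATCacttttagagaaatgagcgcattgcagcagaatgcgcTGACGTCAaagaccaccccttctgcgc
Snhg6 chr1:9944076-9944225 (-): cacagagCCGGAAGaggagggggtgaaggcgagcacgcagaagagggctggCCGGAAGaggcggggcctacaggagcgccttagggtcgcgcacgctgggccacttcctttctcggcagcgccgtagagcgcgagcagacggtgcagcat
Gm31450 chr13:15931596-15931745 (+): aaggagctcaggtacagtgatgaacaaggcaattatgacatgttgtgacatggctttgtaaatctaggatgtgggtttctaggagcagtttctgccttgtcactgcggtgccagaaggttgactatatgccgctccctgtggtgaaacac
The strongest members at Gm3764, Mir9-3hg and Meg3 each carry 1 CRE, at 90, 47 and 58 bp upstream of the annotated start. Those at Gm3764 and Meg3 also carry 1 CCAAT box each. The Mir9-3hg peak has 21 CpG dinucleotides and the Mir124a-1hg peak 2, and the latter, a run of C and T over most of its length, matched none of the 6 motifs. Gm31450 matched none either. These matches are letters in a window and say nothing of binding.

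Mature microRNAs from inside the lincRNA genes are shown because the host genes stand out in the results. They are RefSeq sequences on GRCm38.p6, found for 8 of 11 miRNA genes looked for, with the seed (bases 2 to 8) in capitals.
mmu-miR-9-5p: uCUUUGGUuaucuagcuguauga
mmu-miR-9-3p: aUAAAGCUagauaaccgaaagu
mmu-let-7a-5p: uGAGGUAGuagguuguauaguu
mmu-miR-17-5p: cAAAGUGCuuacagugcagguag
mmu-miR-125b-5p: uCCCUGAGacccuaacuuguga
mmu-miR-135a-5p: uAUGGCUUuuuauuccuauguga
mmu-miR-155-5p: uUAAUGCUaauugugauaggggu
The 3 miR-9 genes, in 3 host lincRNAs on chromosomes 3, 13 and 7, give the same mature miR-9-5p and so share 1 seed. The other 5p sequences each have a seed of their own.

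Both peak lists carry a signal value that the authors gave each peak, a whole number of at most 150 that is not scaled between replicates. Replicate 1 held 689185 autosomal peaks and replicate 2 held 260938, with medians of 6 and 51 over all peaks, so values are compared within a replicate, and ranks are percentiles among the 167363 shared peaks. The read depth is unknown. The 95% intervals of shares below are exact binomial (Clopper-Pearson) and cover counting error only. As a check on the tissue, all 14 midbrain and neural marker genes had a shared peak at a promoter, against 1 of 8 erythroid markers (no globin gene), 1 of 8 myeloid, 4 of 8 endothelial and 5 of 8 meningeal markers. Over all autosomal protein-coding genes the share was 68.8%. The part of these other cells in the lincRNA peaks was not tested.

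Replicate 2 peaks at lincRNA starts recurred in replicate 1 slightly more often than peaks in general. Before the overlap was required, 3177 replicate 2 peaks fitted the position rule, and 2164 of them (68.1%, interval 66.5 to 69.7) overlapped a replicate 1 peak, against 64.1% of all autosomal replicate 2 peaks, 62.2% of distal peaks and 75.4% of peaks at coding starts. In the other direction 2218 of 5024 replicate 1 peaks at lincRNA starts (44.1%) overlapped a replicate 2 peak, against 24.8% of all autosomal replicate 1 peaks. At like values the order was another: of replicate 2 peaks with values above 50 and up to 80, 77.6% at lincRNA starts (interval 74.8 to 80.3) recurred, against 78.6% of all, 81.3% of distal and 68.5% of coding-start peaks. Above 80 and up to 120 the shares were 93.2% (91.1 to 94.9), 94%, 97.1% and 85.8%. The median value was 59 for the 3177 peaks and 52 for all autosomal replicate 2 peaks. Every member lay in a replicate 2 hotspot and 2142 lay in a replicate 1 hotspot. Centres in the 2 replicates were a median of 20 bp apart.

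Members were intermediate in accessibility between distal peaks and coding promoters. Their values had a median of 23 (quartiles 14 to 44, range 2 to 136) in replicate 1 and 75 (quartiles 52 to 104, range 12 to 149) in replicate 2. Distal peaks, over 5000 bp from a coding start and over 1000 bp from any annotated start, had medians of 17 and 59. Peaks at coding starts had medians of 43 and 109, and peaks at other non-coding or pseudogene starts 21 and 69. The quartile ranges of all 4 classes overlapped in both replicates. In ranks the members' medians were 57.7 in replicate 1 and 59.5 in replicate 2, against 42.1 and 42.0 for distal peaks and 79.8 and 83.9 for coding starts.

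**Figure D1:**
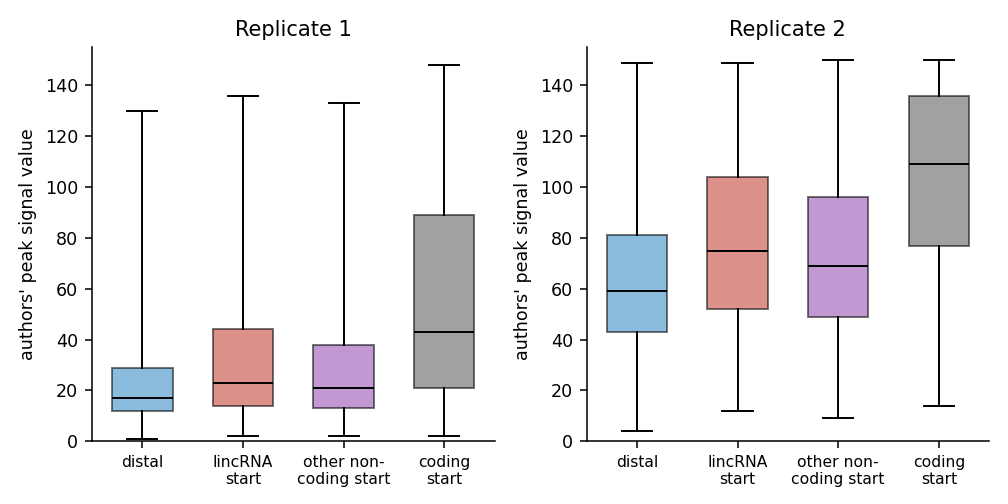
Authors' peak signal value (vertical axis, no unit, at most 150) of shared autosomal peaks in each replicate, for distal peaks, peaks at lincRNA starts, at other non-coding starts and at protein-coding starts. The line is the median, the box the quartiles and the whiskers the full range, and the lincRNA medians of 23 and 75 lie between the distal medians of 17 and 59 and the coding medians of 43 and 109.

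The strongest members were few but more than their share. In replicate 1, 275 members (12.7%, interval 11.3 to 14.2) ranked at or above percentile 90 of shared peaks, against 9.86% of all shared peaks (ties at the limit keep this under 10%). In replicate 2 the count was 252 (11.6%, interval 10.3 to 13.1) against 9.91%. Distal peaks reached percentile 90 in 3.34% and 2.67% of cases, and coding starts in 36.5% and 39.7%. Hotspots around the members were wider than those around distal peaks, with median widths of 450.5 and 624 bp in replicates 1 and 2 against 311 and 340 bp, and narrower than the 883 and 1609 bp at coding starts. The hotspot reached the cap of the authors' −log10 q scale for 58.0% of members in replicate 1 and 69.5% in replicate 2, against 42.7% and 52.1% of distal peaks.

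The replicates ordered the members alike. Spearman's correlation of the values between replicates was 0.92 over the 2164 members, against 0.86 over distal peaks and 0.96 over coding starts, each a description over peaks of the same 2 libraries. The rank in replicate 2 minus that in replicate 1 had a median of 0.23 points, and 67.0% of members differed by at most 10 points. At the extremes, chosen after their values were seen, a Mir155hg peak had a value of 13 in replicate 1 and 98 in replicate 2, a difference of 50.6 points. A D030034A15Rik peak with values of 12 and 88 differed by 48.1 points. In the other direction a Gm47467 peak had values of 50 and 48, a difference of -56.9 points, and a Gm47469 peak had 58 and 58, a difference of -46.8 points.

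The peaks gathered at the start itself, and more on its upstream side. Around 6252 isolated lincRNA starts, which lie over 5000 bp from coding starts, there were 13.7 shared peaks per 100 starts in the 250 bp upstream and 7.28 in the 250 bp downstream, over a mean of 2.44 per bin more than 5000 bp away (range of bins 1.98 to 2.94). Coding starts had 41.7 and 16 over a distant mean of 2.20. Processed pseudogenes, inserted copies of spliced mRNAs that usually lack a promoter, had 0.872 and 0.946, below their distant mean of 1.43. Their level was lower still, 0.381, at 250 to 500 bp downstream. The cause of these low levels was not tested.

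**Figure D2:**
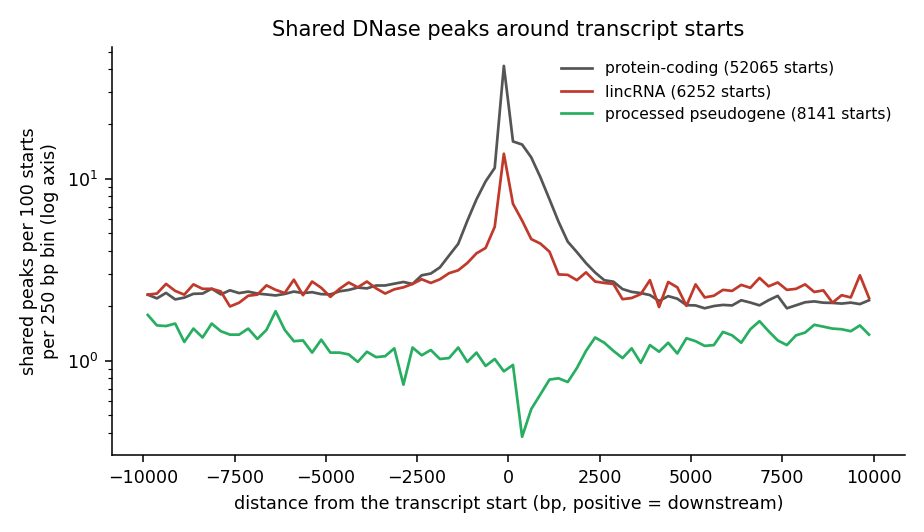
Shared peaks per 100 transcript starts in 250 bp bins (vertical log axis) against distance from the start in bp, positive downstream, for protein-coding, isolated lincRNA and processed pseudogene starts. The lincRNA line rises from about its distant mean of 2.44 to 13.7 just upstream of the start, the coding line to 41.7, and the pseudogene line shows no rise.

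Within the 1000 bp limit, 560 members (25.9%) had their centre within 100 bp of the start and 452 (20.9%) covered the start base. More were upstream (1175) than at or downstream of the start (989), with a median position of 25 bp upstream. Peaks closest to the start were also stronger: the 363 members centred 1 to 100 bp upstream had median values of 29 and 88, and the 336 centred over 500 bp upstream had 20 and 68. When only the strongest member of each gene was taken, 415 of 1325 (31.3%) were within 100 bp. Just inside the 1000 bp limit were peaks at Gm30074 (999 bp from the start, values 54 and 119), Rncr4 (998 bp, 8 and 65) and Gm12916 (997 bp, 26 and 69). Just outside it were peaks at Gm26772 (1002 bp, 14 and 70), Gm17619 (1002 bp, 41 and 100) and 5330429C05Rik (1004 bp, 40 and 110). At the limit to coding starts, peaks at Gm28199 (5030 bp, values 20 and 55), Mir142hg (5050 bp, 12 and 34) and Prr33 (5073 bp, 18 and 59) were just inside. A peak of 9030622O22Rik, 4997 bp from Foxa2, with values of 19 and 77, one of AW121686 (4961 bp, 46 and 108) and one of B230311B06Rik (4846 bp, 13 and 57) were just outside.

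About 3 in 10 isolated lincRNA genes had a shared peak near a start, and such genes are called open here. Of 4550 lincRNA genes whose every start lay over 5000 bp from a coding start, 1345 (29.6%, interval 28.2 to 30.9) had a shared peak centred within 1000 bp of a start. Peaks also occur away from starts, at a mean of 2.44 per 100 lincRNA starts in each distant 250 bp bin. How much of the 29.6% such background peaks make up was not tested. A further 720 had a peak in replicate 1 only, 244 in replicate 2 only, 74 in each without overlap, and 2167 in neither. The share was 27.9% for isolated antisense genes, 41.5% for processed transcripts, 15.1% for TEC genes (annotations still to be tested experimentally), 13.3% for microRNA genes and 5.22% for processed pseudogenes, against 68.8% of protein-coding genes. Genes with more annotated starts have more chances to be open: among genes with 1 start the shares were 25.7% for lincRNA, 25% for antisense, 21% for processed transcripts, 15% for TEC, 5.22% for processed pseudogenes and 57.2% for coding genes.

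The open genes differed little in structure from the closed ones. Both had a median of 3 exons, and the median gene length was 9191 bp for open and 7583 bp for closed genes. Genes with the best transcript support (level 1) were open in 34.7% of cases and those of level 5, the weakest, in 24.0%. Those over 500000 bp from any coding start were open in 17.7% of cases (interval 13.6 to 22.3), and those 50000 to 100000 bp away in 34.0% (30.9 to 37.2). A shared peak somewhere in the gene body was present in 77.0% of open and 37.8% of closed genes. The first share includes peaks just downstream of the start, which also make a gene open.

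CpG-rich members were stronger than the others, though they were the smaller group among members at or above percentile 90 in each replicate. A peak was called CpG-rich when the 500 bp around its centre had at least 50% G and C and an observed/expected CpG ratio of at least 0.6. By this measure 237 members (11.0%, interval 9.67 to 12.3) were CpG-rich, against 12.7% of all shared peaks, 1.29% of distal peaks and 57.6% of peaks at coding starts. Among peaks at other non-coding or pseudogene starts the share was 10.5% (interval 9.66 to 11.4). The members' share of CpG-rich peaks was thus near that class and the background of all peaks, and far from either distal or coding peaks. CpG-rich members had median values of 62 in replicate 1 and 123 in replicate 2, and the other 1927 members had 21 and 70. In replicate 1, 46.0% of CpG-rich members ranked at or above percentile 90, and in replicate 2 51.9%, against 8.61% and 6.69% of the others. In numbers these were 109 CpG-rich and 166 other members in replicate 1, and 123 and 129 in replicate 2. CpG-rich members were also closer to the start, with 40.1% within 100 bp against 24.1%, and their hotspots were wider, with medians of 951 and 1545 bp against 410 and 554 bp.

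The members without CpG-rich sequence still had higher median values than distal peaks of the same kind (21 and 70 against 17 and 58), and CpG-rich members higher ones than CpG-rich distal peaks (62 and 123 against 41 and 107). CpG-rich peaks at coding starts had 74 and 130, and the other peaks there 23 and 77. Within each CpG class the lincRNA medians thus lay closer to the coding medians than over all peaks. Interspersed and simple repeats masked in the genome made up over 50% of the interval in 48 members (2.22%), against 2.70% of distal peaks.

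Among genes, CpG content at the 5′ end went with being open in all 4 gene types looked at. Of isolated lincRNA genes with a CpG-rich 5′ end, 122 of 165 (73.9%, interval 66.5 to 80.5) were open there, and of the rest 1152 of 4385 (26.3%). For coding genes the shares were 97.4% and 34.8%. Only 3.63% of isolated lincRNA genes had a CpG-rich 5′ end, against 48.8% of coding genes. In bins of the CpG ratio, lincRNA genes rose from 16.3% open at a ratio up to 0.2 to 79.5% above 0.8, while processed pseudogenes rose from 3.41% to 26.4%. In the lowest bin lincRNA genes (interval 14.7 to 18) were open more often than coding genes (9.66%, 8.82 to 10.5), and in the bins above it less often.

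**Figure D3:**
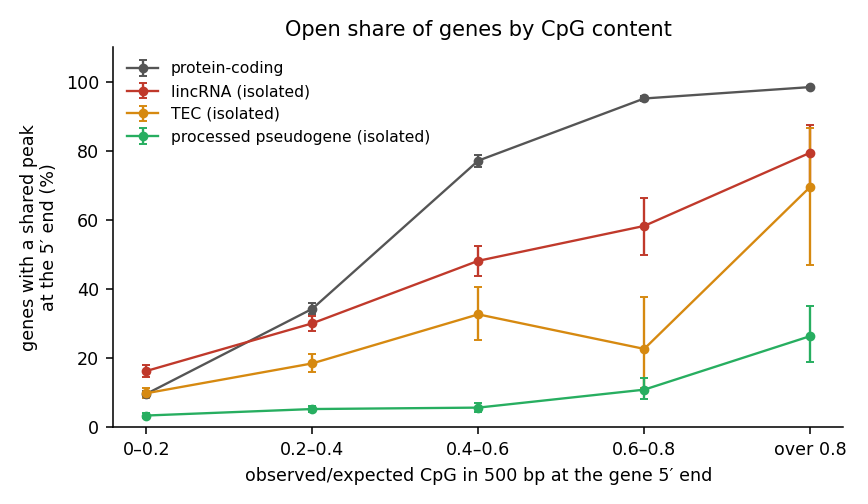
Percent of genes with a shared peak within 1000 bp of the gene 5′ end (vertical axis) by the observed/expected CpG ratio of the 500 bp around it, for protein-coding, isolated lincRNA, isolated TEC and isolated processed pseudogene genes, with 95% exact binomial intervals. The lincRNA line climbs from 16.3% to 79.5%, above the coding line in the lowest bin and below it in the others, and the pseudogene line stays at or below 26.4%.

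Most promoter-type motifs, but not all, were found in members at shares between those of distal and coding peaks. The YY1 motif AAGATGGC was in 0.693% of members (interval 0.388 to 1.14), lower than in distal (0.939%), coding (1.66%) and all shared peaks (1.07%). The NRF1 core was in 0.739% of members (0.423 to 1.2), against 0.519% of distal, 2.25% of coding and 0.856% of all. Both intervals include the distal share. The GC box, bound by Sp/Klf factors, was in 11.8% of members (interval 10.5 to 13.3), against 4.50% of distal peaks, 38.9% of coding-start peaks and 11.5% of all shared peaks. The ETS motif CCGGAAG was in 3.05% of members (2.37 to 3.86), against 0.906%, 7.24% and 2.14%. For the CRE, the site of CREB and ATF factors and its own reverse complement, the counts were 26 members (1.2%, 0.786 to 1.76), against 0.263% of distal, 1.69% of coding and 0.553% of all shared peaks. Peaks at other non-coding or pseudogene starts held a GC box in 11.2% of cases, close to the members, an ETS motif in 1.35% and a CRE in 0.504%. Outside CpG-rich sequence the GC box was in 8.25% of members, 4.08% of distal and 16.5% of coding peaks, and ETS in 2.44%, 0.874% and 2.59%. The GC box, ETS motif and CRE were also more frequent near the start. Within 100 bp of it 17% of members held a GC box, 7.32% an ETS motif and 2.50% a CRE, and over 250 bp from it 9.14%, 1.5% and 0.664%.

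Motifs of developmental and neural factors were found in members at shares near those of all shared peaks. The E-box CAGCTG, read by neural bHLH factors, was in 15.1% of members (13.6 to 16.6), 15.5% of distal, 9.86% of coding and 14.3% of all shared peaks. The homeodomain motif TAATTA was in 4.90%, 6.29%, 1.17% and 4.95% of these classes, the NFI motif TTGGCA in 11.0%, 13.6%, 6.55% and 12%, the POU octamer ATGCAAAT in 1.57%, 2.20%, 0.708% and 1.82%, and the Sox motif ACAATGG in 2.31%, 2.66%, 1.26% and 2.33%. For the CTCF core CNAGNNGGC, where N is any base, the shares were 13.8%, 13.4%, 17.7% and 14.6%. The TATA box was in 4.67% of members, 6.65% of distal, 2.56% of coding and 5.65% of all shared peaks. Of the 17 motifs searched on both strands of 150 bp, 826 members held none.

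**Figure D4:**
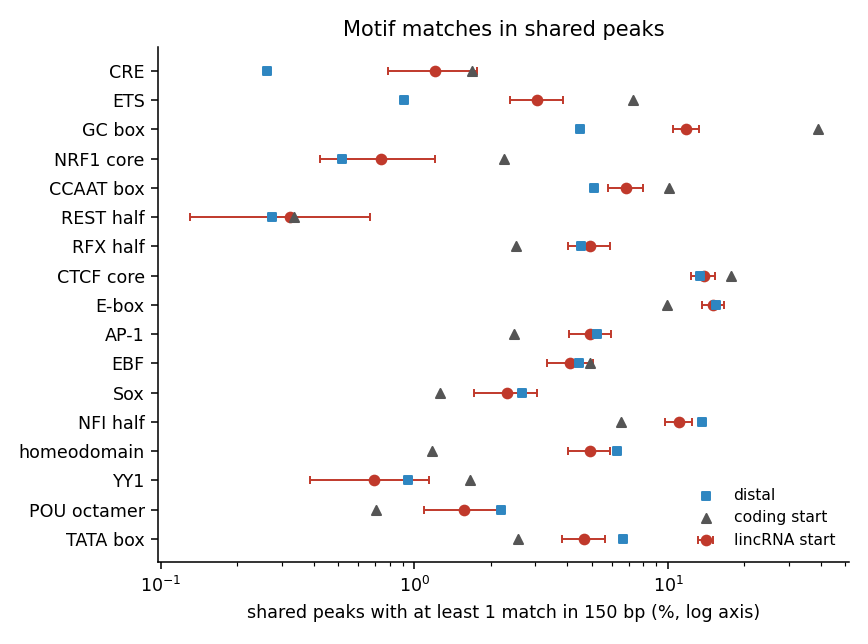
Percent of shared peaks with at least 1 match in 150 bp (horizontal log axis) for each of 17 motifs, in peaks at lincRNA starts (circles with 95% exact binomial intervals), distal peaks (squares) and peaks at coding starts (triangles), ordered by the ratio of lincRNA to distal. CRE, ETS and GC box stand at the top, with lincRNA shares of 1.2%, 3.05% and 11.8% above the distal 0.263%, 0.906% and 4.50%, and TATA box and POU octamer at the foot.

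The 26 members with a CRE had higher median values, 62.5 in replicate 1 and 119.5 in replicate 2, against 23 and 74 for the others. Not all 26 were strong. A Gm42952 peak with a CRE had values of 10 and 40. A Gm3764 peak whose site lay 921 bp downstream of the start had 5 and 45. Of the 26, 12 were CpG-rich, which is 5.06% of CpG-rich members, against 2.29% of CpG-rich coding peaks and 1.17% of CpG-rich distal peaks. The 26 also included the strongest members of Gm3764 and Mir9-3hg, 2 of the 3 miR-9 host genes, but not that of C130071C03Rik. At Meg3, an imprinted lincRNA with growth-restraining activity, the site lay at chr12:109540939-109540946. At Pvt1, the lincRNA next to Myc, it lay at chr15:62037988-62037995, 6 bp downstream of the start, in a peak with values of 33 and 104. The CRE of Gm26803, 194 bp upstream of its start and inside the C130071C03Rik region, lay in a peak with values of 94 and 139.

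The 12 members with the highest mean rank had values of 114 to 136 in replicate 1 and 146 to 149 in replicate 2. Of these, 11 were CpG-rich and all 12 held a GC box. At the top was 1700096K18Rik on chromosome 5, with values of 129 and 148. D730045B01Rik followed with 136 and 147, its start inside a coding gene body. Gm20732, which contains Mir30d, had 127 and 148, and 6720427I07Rik, which contains Mirlet7a-1, Mirlet7d and Mirlet7f-1, had 133 and 146. Let-7 microRNAs promote differentiation by repressing progenitor genes. Gm33195 had 124 and 146, Tmem250-ps, named as a pseudogene but typed lincRNA, 118 and 148, and 1700064M15Rik 114 and 149. In each replicate these values were near the highest of any member.

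Some strong members lay near a coding gene in another sense. The 4932412D23Rik start had 2 members in the top 12 (values 121 and 148, and 122 and 146), and an annotated start of a non-coding transcript of Zbtb20, a zinc finger gene of neural development, is within 1000 bp. There were 25 members within 5000 bp of such a start, and 2139 members remained when all transcripts of coding genes were counted. A start of any other gene was within 1000 bp of 220 members, on the opposite strand for 144 of them. Without strand information the peak cannot be given to either gene. The median distance to a coding start was 64168.5 bp (quartiles 27359 and 158788), 92 members were over 500000 bp away, and 88 lay inside a coding gene body.

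The weakest members were Gm31450, with values of 4 and 17, Gm30124 with 5 and 12, and a Gm27243 peak with 6 and 22. The remaining 2 of the lowest 5 were a pair of overlapping intervals at BC002059, with 6 and 20 and with 6 and 22. None was CpG-rich. The Gm31450 peak was centred 11 bp upstream of its start, and is 1 of the 560 members within 100 bp of one. In all, 73 members overlapped another member.

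Members were spread unevenly over genes: 816 lincRNA genes had 1 member, 303 had 2, 146 had 3 and 60 had 4 or more. The 5 genes with the most were Gm3764 (17), C130071C03Rik (13), Rmst (10), Lncpint (9) and Mir124-2hg (8). These genes also have many annotated starts, 11, 4, 13, 14 and 7, which widen the area searched. Their members lay over 24050, 19390, 90070, 131330 and 7590 bp.

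Host genes of miR-9, which balances neural progenitor growth and neuronal differentiation, held 35 members together. Gm3764, host of Mir9-1, had values of 5 to 68 (median 37) in replicate 1 and 39 to 130 (median 94) in replicate 2. C130071C03Rik, host of Mir9-2 and the neighbour of Mef2c, had 12 to 93 (median 35) and 73 to 132 (median 105). Mir9-3hg had 25 to 70 (median 44) over 5 members and 63 to 129 (median 111). The strongest member lay 1207 bp before the Mir9-1 hairpin, 17643 bp before Mir9-2 and 5293 bp before Mir9-3. All 3 medians were above the members' medians of 23 and 75 in both replicates, and the lowest Gm3764 values were below them.

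Host genes of miR-124, an abundant microRNA of neurons, held 13 members, all above the median of members in both replicates. Mir124a-1hg had 5 members with values of 51 to 85 in replicate 1 and 122 to 140 in replicate 2, all in a single hotspot of 9598 bp in replicate 1 and 11261 bp in replicate 2. Mir124-2hg had 8 members with 24 to 90 (median 36) and 94 to 136 (median 98.5), in 3 hotspots of up to 9051 and 9073 bp. The strongest members lay 1006 and 1691 bp before the hairpins. The widest hotspot was 21.3 and 18 times the members' median width at Mir124a-1hg, and 20.1 and 14.5 times at Mir124-2hg, in replicates 1 and 2. The miR-9 hosts also lay in wide hotspots, of up to 8671 and 13489 bp at C130071C03Rik and 4728 and 12002 bp at Gm3764.

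**Figure D5:**
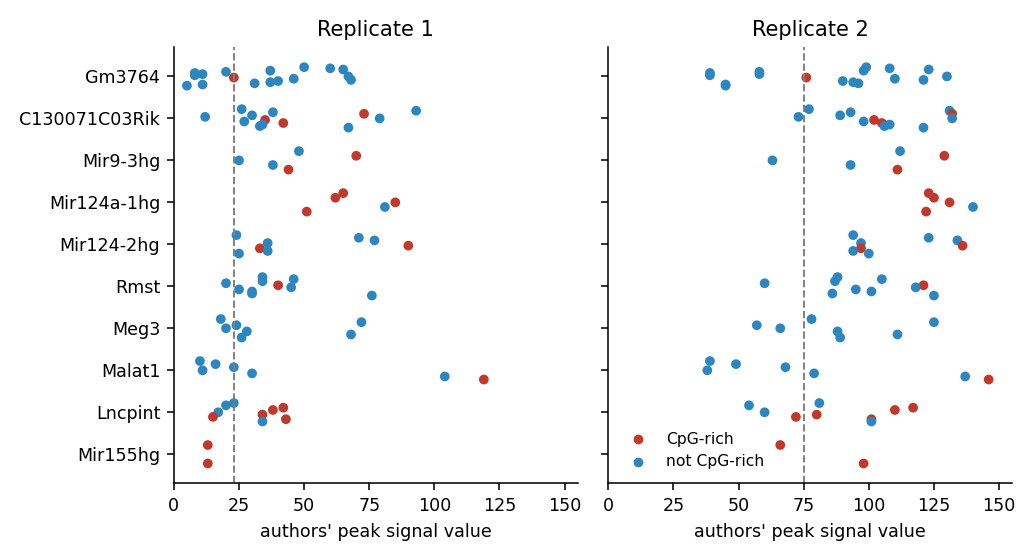
Authors' peak signal value (horizontal axis, no unit) of each member at 10 lincRNA genes in replicates 1 and 2, with CpG-rich members in red and the others in blue; the dashed line is the median of all 2164 members (23 and 75). All points of Mir124a-1hg and Mir124-2hg lie to the right of the lines, Malat1 and Gm3764 spread to both sides, and the Mir155hg points lie at 13 in replicate 1 and at 66 and 98 in replicate 2.

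Over all isolated lincRNA genes, 32 of 55 (58.2%, interval 44.1 to 71.3) with a microRNA gene on their strand were open, against 29.2% of the others. With a single start 11 of 28 (39.3%, 21.5 to 59.4) were open against 25.6%, so part of this difference went with the number of starts. The 113 members at 33 such genes had median values of 34 and 97, against 22 and 73 for the remaining members. Of the 113, 35 lay at the 3 miR-9 hosts, 5 at Mir124a-1hg and 8 at Mir124-2hg, so a few genes weigh heavily in these medians. CpG-rich members made up 23.9% of the 113 and 10.2% of the remaining members. Further open hosts were Mir17hg, source of the growth-promoting miR-17 cluster, with a strongest member of 79 and 131, Gm49317 (Mir100, Mirlet7a-2, Mir125b-1) with 73 and 128, and Mir670hg with 89 and 145. Of the 23 hosts without a shared peak, 12 had no peak in either replicate. Among these 12 were the hosts of the brain microRNA Mir138-2 (C78859), of Mir30c-2 (Gm27028), of the epithelial Mir205 and of the pancreatic Mir216a and Mir217. A peak in replicate 1 only was found for 6, among them the hosts of the liver microRNA Mir122 and of the Mir344 group (A230057D06Rik). Gm28653, host of the muscle microRNAs Mir133b and Mir206, had 1 member with values of 21 and 41, below the median of members in both replicates.

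Known lincRNAs were read from 4 lists. All 10 isolated lincRNAs of the neural list were open, against 29.6% of all isolated lincRNA genes, with 61 members at 11 genes and median values of 38 and 105. Several of the 10 have many annotated starts, as Lncpint (14), Rmst (13) and Mir124-2hg (7) do. Of all isolated lincRNA genes with 3 or more starts 50% were open, and of those with 1 start 25.7%. Rmst, which takes part in neurogenesis with Sox2, had a strongest member of 76 and 125, and it contains Mir135a-2. Miat had 93 and 141, 2610035D17Rik 93 and 144 and 1700020I14Rik 108 and 142. Lncpint, despite its 9 members, had 15 to 43 in replicate 1 and 54 to 117 in replicate 2. Pantr1, Otx2os1 and Lhx1os were also open but start within 5000 bp of a coding start and so are no members.

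All 10 isolated lincRNAs of the broadly expressed list were open as well (29.6% of all), with 22 members and median values of 31.5 and 99. Malat1, an abundant nuclear RNA, had 7 members from 10 to 119 and from 38 to 146, the strongest of 119 and 146. That Malat1 peak was centred at -979 bp from a start (upstream is negative), and another, at -19 bp, had 104 and 137. Neat1 had 95 and 142. The snoRNA host Snhg6 had 118 and 143, and Snhg12 94 and 139. Of 3 imprinted lincRNAs, Meg3 had 7 members with 18 to 72 (median 26) and 57 to 125 (median 88), H19, silent on the paternal copy, had 2, the stronger of 16 and 48, and Mirg had a peak in replicate 1 only. The H19 value was below the members' median in both replicates.

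Of 13 isolated lincRNAs known from other tissues, 7 were open, a higher share than the 29.6% of all isolated lincRNA genes, and the 13 members at 8 genes of that list had medians of 14 and 55, below those of all members. Trp53cor1, a target of p53, and Lncenc1 had strongest members above them, with 33 and 84 and with 24 and 85. The limb and trunk lincRNA Hotair and the smooth muscle Carmn had no peak in either replicate, as did Lncbate1 and Platr10. Platr3 had one in replicate 1 only and Ptgs2os2 one in replicate 2 only. Halr1 of the HoxA region had a strongest member of 16 and 52, and the heart lincRNA Bvht 18 and 55. Mir142hg and Mir155hg, of blood cells, had strongest members of 12 and 34 and of 13 and 98. Among the 8 myeloid marker promoters only that of P2ry12 had a shared peak, and 3 of the 8 had a peak in replicate 1. The part of blood cells in the Mir142hg and Mir155hg peaks was not tested. Members of the neural and broad lists thus had higher medians than those of this list in both replicates. The lists hold few genes and were put together with earlier results known. Their genes were not matched to all isolated lincRNA genes in the number of annotated starts.

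Members had a neural transcription factor as nearest coding gene in 196 cases (9.06%, interval 7.88 to 10.3), against 5.99% of distal peaks and 3.03% of peaks at coding starts, and such factors are 1.15% of coding genes. Several of these members can lie at 1 lincRNA gene, which the interval does not allow for. Counted by gene, the share was 7.36% (6.02 to 8.89) of open isolated lincRNA genes and 5.46% (4.7 to 6.3) of closed ones. The lincRNA genes lying nearest to such a factor were open in 36.1% of cases (interval 30.4 to 42.1), against 29.1% (27.8 to 30.5) of the others. The 196 members, at 99 lincRNA genes and 58 factors, had median values of 21 and 76.5, against 23 and 74 for the rest. Strength therefore did not differ in 1 direction over both replicates.

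Most numerous were 16 members from 7 lincRNA genes beside Irx3, a homeodomain gene of neural patterning, with values from 5 to 72 and from 31 to 125. The strongest, at Gm36670, had values of 72 and 125 and lay 189684 bp from the Irx3 start. Mef2c, a neuronal differentiation factor, had 15 (values 12 to 94 and 72 to 139), all at C130071C03Rik and Gm26803. Nr2f1 had 8, Pou3f3 and Hand2 7 each, and Id4, Nr2f2, Sox4 and Zfhx4 6 each. Some of these factors are the nearest coding gene only at long range. The Pou3f3 members lay 432937 to 778217 bp from its start, those of Zfhx4 128235 to 421555 bp and those of Nr2f1 24202 to 1085934 bp. The Hand2 members lay 10908 to 20288 bp away and those of Sox4 11482 to 62558 bp. Hes1, which keeps progenitors undifferentiated, had 4, the strongest of 80 and 131 at 4632428C04Rik. Of the 14 midbrain and neural marker genes, 7 were the nearest coding gene of 19 members, with median values of 16 and 67, below the 23 and 75 of all members. En1 had 4, with 6 to 25 and 35 to 69, Foxa2 4, all at 9030622O22Rik, with 8 to 19 and 38 to 73, and Lmx1b 2, with 14 to 17 and 71 to 72. Otx2 had 3, among them a Gm49156 peak with 64 and 115 at 67392 bp from its start. The single member beside Pax3, at Gm28387, had 60 and 101, and the 2 beside Pou4f1 had 24 to 26 and 79 to 94, above the medians of all members. Sox2 had 3, with 16 to 27 and 61 to 89.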

How the data were processed

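DNase-seq of midbrain at embryonic day 14.5 was analysed in 2 biological replicates of 1 group. Per the file headers the authors called peaks and hotspots per replicate on mm10. Which aligner and caller were used is not given in the sources used here. The deposited peak lists give 150 bp intervals with a signal value of at most 150, not scaled to depth. The deposited hotspot lists give a −log10 q value, from the threshold of q = 0.05 to a cap of 100, and a hotspot at the cap only has a lower bound. Around the members chosen for naming, values under the cap were 6 or less. The cap therefore cannot be read as a measured −log10 q of 100. Depth is unknown.

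Starts came from GENCODE M21. Peaks were matched to the nearest start by their centre in Python 3.11.15 with numpy 2.4.6, pandas 2.3.3, scipy 1.17.1 and pysam 0.24.0. Percentile ranks were taken among shared peaks. Composition used 500 bp and motifs 150 bp around the centre, as exact matches. The overlap and nearest-start steps were tested on simulated data. No test between samples exists with 1 group, so no p-value is given. Members, gene lists and motifs were chosen with earlier results of these data known. Named were the 12 highest and 5 lowest members by mean rank, members of the 4 lincRNA lists, microRNA hosts, the 12 strongest beside neural factors, the 5 genes with most members and peaks at the limits. Genes named as closed, with extreme rank differences or with a CRE were chosen after their values were seen. Alternatives to each limit were run. The sequence of 1 member is not reported here.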

Additional observations from a re-analysis of the deposited data

How the results depend on the processing

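In 12 other settings 70 values were recomputed: the number of members, the share of isolated lincRNA genes that are open, the median rank in each replicate, the CpG-rich share and the median position. Of these, 38 stayed within the replicate spread, the binomial interval or 1.5 times the count, and 32 did not. The members' median position was upstream in every setting (17 to 29 bp). With a 500 bp limit to the lincRNA start, 23.54% of genes were open, the ranks were 61.32 (replicate 1) and 61.29 (replicate 2), 13.15% were CpG-rich and the position was -29 bp. With 2000 bp these were 38.22%, 55.66, 56.61, 8.63% and -21 bp. With only replicate 2 values at or above the median there were 1279 members, 19.30% of genes, ranks of 76.21 and 76.53 and 17.04% CpG-rich. An overlap of 75 bp gave 27.52% and -27 bp, gene 5′ ends only 28.00% and -19 bp, the replicate 1 interval -28 bp, and a coding limit of 10000 bp -28 bp. Leaving out a replicate, and with it the overlap condition, gave 3177 to 5024 members, 36.55% to 46.95% of genes, 5.533% to 8.75% CpG-rich and positions of -19 to -17 bp, with a rank of 72.46 in replicate 1 alone, taken over its longer list, and of 58.98 in replicate 2 alone. The list of replicate 1, with its many low values, gave the highest count. Chosen after seeing the data were 2 settings: counting all transcripts of coding genes (-27 bp), and adding antisense, processed transcript and sense intronic genes (3291 members, -22 bp, more genes by construction). Changing the window, setting a floor on the value, and making the overlap stricter or leaving it out also change counts and open shares by construction. The floor on replicate 2 values likewise raises the replicate 2 rank. The cause of the remaining shifts was not tested. No paired analysis was possible because there was 1 group. The unknown depth limits any statement that a lincRNA start was closed.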
